A study of Homo sapiens with 12 samples.

Results

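The genes described here are 9 members of the machinery that carries a cut Notch receptor to its target genes, taken by symbol from 35587 rows of a table of transcript abundance: PSEN2, NCSTN, APH1A and PSENEN of gamma-secretase, the DNA-binding factor RBPJ with its coactivators MAML1, MAML2 and MAML3, and the Notch antagonist NUMB. The cells were TeloHAEC, human aortic endothelial cells immortalised with telomerase. Polyadenylated RNA, purified from 140 ng of total RNA, was sequenced from 3 lines on 2 coatings. The TKO line had TSPAN14, a tetraspanin gene, targeted with Cas9, the NKO line had NOTCH1 targeted, and the NT line was the control. Each line had been on a coating of Delta-like ligand 4 (DLL4) or of IgG, at 2.5 mg/mL for 24 hours, and each of the 6 groups had 2 libraries. The libraries of a group are labelled as biological replicates, with no word on separate cultures. The p-values below therefore measure only how far these libraries spread. Each targeted gene is represented by 1 line, so an effect of the targeted gene and any other difference between 2 lines cannot be told apart. Whether a line is a clone or a pool is not given in the sources used here.

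Gamma-secretase is a membrane protease that cuts Notch within the membrane once ADAM10 has removed the outer part of the receptor. Presenilin holds the active site, nicastrin (NCSTN) receives the substrate, APH1 forms a scaffold and PSENEN completes the active enzyme. The freed intracellular domain binds RBPJ, which otherwise holds target genes silent with corepressors, and a Mastermind-like protein (MAML) joins them and brings in the acetyltransferases EP300 and CREBBP. NUMB, an adaptor of clathrin-mediated endocytosis, lowers Notch signalling by acting on the receptor at the membrane. In endothelium this route governs arterial fate and the choice between tip and stalk cells.

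RBPJ recognises DNA whose core reads TGGGAA, or TTCCCA when read on the other strand. These letters were searched on both strands in the 250 bases before the annotated starts of genes (RefSeq, GRCh38.p14) and were present in 7321 of 35116 such windows, or 20.8%. Among the members they were present in 2 of 13 windows (15.4%), those of PSENEN and of 1 RBPJ start. By gene this was 2 of 9 members, beside 6720 of 27305 genes in all. Of 6 windows of 6 Notch target genes, those of HES1, HES4 and HEY2 held them and those of NRARP, DLL4 and EFNB2 did not. HEY1 is not among the 6. A difference between members and target genes was not tested. The windows of HES1, HES4, RBPJ and PSENEN are printed below as windows that hold a match. That of HEY2 also holds 1, TTCCCA beginning 213 bases before the start, and is not printed. The windows of PSEN2 and NUMB are printed as the genes whose levels differed most between lines. Capitals mark each match, every sequence runs 5′ to 3′ on the strand of its gene, and a match is a match of letters only.
HES1 promoter, chr3:194135898-194136147 (plus strand): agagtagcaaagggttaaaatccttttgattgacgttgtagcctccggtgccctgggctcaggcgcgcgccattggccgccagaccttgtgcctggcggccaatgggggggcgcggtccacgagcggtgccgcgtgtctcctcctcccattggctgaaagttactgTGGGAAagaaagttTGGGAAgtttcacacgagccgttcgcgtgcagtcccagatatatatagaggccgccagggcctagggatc
HES4 promoter, chr1:1000098-1000347 (minus strand): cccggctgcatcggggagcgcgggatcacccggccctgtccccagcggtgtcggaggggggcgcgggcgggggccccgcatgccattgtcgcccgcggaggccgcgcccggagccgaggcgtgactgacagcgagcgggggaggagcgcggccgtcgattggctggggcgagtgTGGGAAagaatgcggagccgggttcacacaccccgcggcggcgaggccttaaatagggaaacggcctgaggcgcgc
RBPJ promoter, chr4:26319496-26319745 (plus strand): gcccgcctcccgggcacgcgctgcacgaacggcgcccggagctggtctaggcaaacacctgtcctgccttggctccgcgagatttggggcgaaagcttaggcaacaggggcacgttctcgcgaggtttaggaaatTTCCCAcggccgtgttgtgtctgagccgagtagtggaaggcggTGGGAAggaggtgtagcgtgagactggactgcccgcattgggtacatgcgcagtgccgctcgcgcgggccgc
PSENEN promoter, chr19:35745401-35745650 (plus strand): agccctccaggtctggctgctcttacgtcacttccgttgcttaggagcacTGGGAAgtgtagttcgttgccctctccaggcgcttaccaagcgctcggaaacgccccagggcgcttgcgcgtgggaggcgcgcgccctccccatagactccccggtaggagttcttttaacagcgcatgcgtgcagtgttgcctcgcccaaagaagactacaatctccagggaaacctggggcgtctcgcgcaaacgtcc
PSEN2 promoter, chr1:226870366-226870615 (plus strand): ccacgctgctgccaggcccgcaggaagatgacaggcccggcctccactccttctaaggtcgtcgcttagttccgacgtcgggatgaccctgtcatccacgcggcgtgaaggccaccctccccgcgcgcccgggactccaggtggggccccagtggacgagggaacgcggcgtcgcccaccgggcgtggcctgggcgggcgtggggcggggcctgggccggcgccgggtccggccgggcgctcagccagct
NUMB promoter, chr14:73458547-73458796 (minus strand): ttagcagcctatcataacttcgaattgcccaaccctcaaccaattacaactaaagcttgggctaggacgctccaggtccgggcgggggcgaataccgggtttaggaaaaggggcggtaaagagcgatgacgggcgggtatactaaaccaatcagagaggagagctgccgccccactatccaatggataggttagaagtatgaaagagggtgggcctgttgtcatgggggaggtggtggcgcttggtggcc
The first base of the match stood 84 and 70 bases before the start in HES1 and 76 bases before it in HES4. In the RBPJ window, chr4:26319496-26319745 on the plus strand, there was 1 match in each orientation, beginning 72 and 115 bases before the start. PSENEN, chr19:35745401-35745650 on the plus strand, had 1 match 200 bases before its start. The windows of PSEN2 and NUMB held no match.

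The values are TPM, which scale each library to a common total and keep no record of read number, which leaves the depth unknown and allows no counting interval. A gene was tested when it had at least 1 TPM in at least 2 libraries, which 13299 symbols and 8 of the 9 members did. Tests were limma's moderated tests on log2(TPM + 1) over all 12 libraries, with p adjusted over all tested genes, and a gene is said to have risen or fallen only at an adjusted p under 0.05. All 10 endothelial markers examined were at 1 TPM or more in every library. Of 14 markers of other cell types, PTPRC, LYZ, EPCAM, CDH1, MYH11, LUM and DCN stayed below 1 TPM in every library, while CD68, KRT8, ACTA2 and TAGLN were above 1 TPM in all 12. The targeted genes were still transcribed. TSPAN14 averaged 137 TPM in TKO cells on IgG against 204 TPM in NT cells, and 111 TPM against 179 TPM on DLL4. NOTCH1 averaged 17.4 TPM in NKO cells on IgG against 18.7 TPM in NT cells. On DLL4 it was lower in NKO cells, at 18.0 TPM (16.5 to 19.5) against 28.1 TPM (24.7 to 31.5) in NT cells. In bulk RNA such as this, fewer cells of a type and less RNA per cell cannot be told apart.

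The 9 genes covered a wide span of levels, with the structural subunits of gamma-secretase at the top and the Mastermind-like genes at the bottom. TPM are scaled for transcript length, so levels of different genes can be set beside each other. APH1A averaged 97.6 TPM over the 12 libraries, PSENEN 83.4 TPM, NCSTN 79.5 TPM and NUMB 49.0 TPM. PSEN2, at 13.1 TPM, and RBPJ, at 10.01 TPM, were lower, followed by MAML3 at 3.86 TPM and MAML2 at 0.948 TPM. APH1A exceeded PSENEN in 12 of 12 libraries although their ranges overlapped. PSENEN exceeded NCSTN in 7 of 12 libraries and PSEN2 exceeded RBPJ in 7 of 12, so neither of these neighbours was apart beyond its spread. The steps between NCSTN and NUMB, NUMB and PSEN2, RBPJ and MAML3, and MAML3 and MAML2 each separated all 12 libraries of one gene from all 12 of the other.

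**Figure D1:**
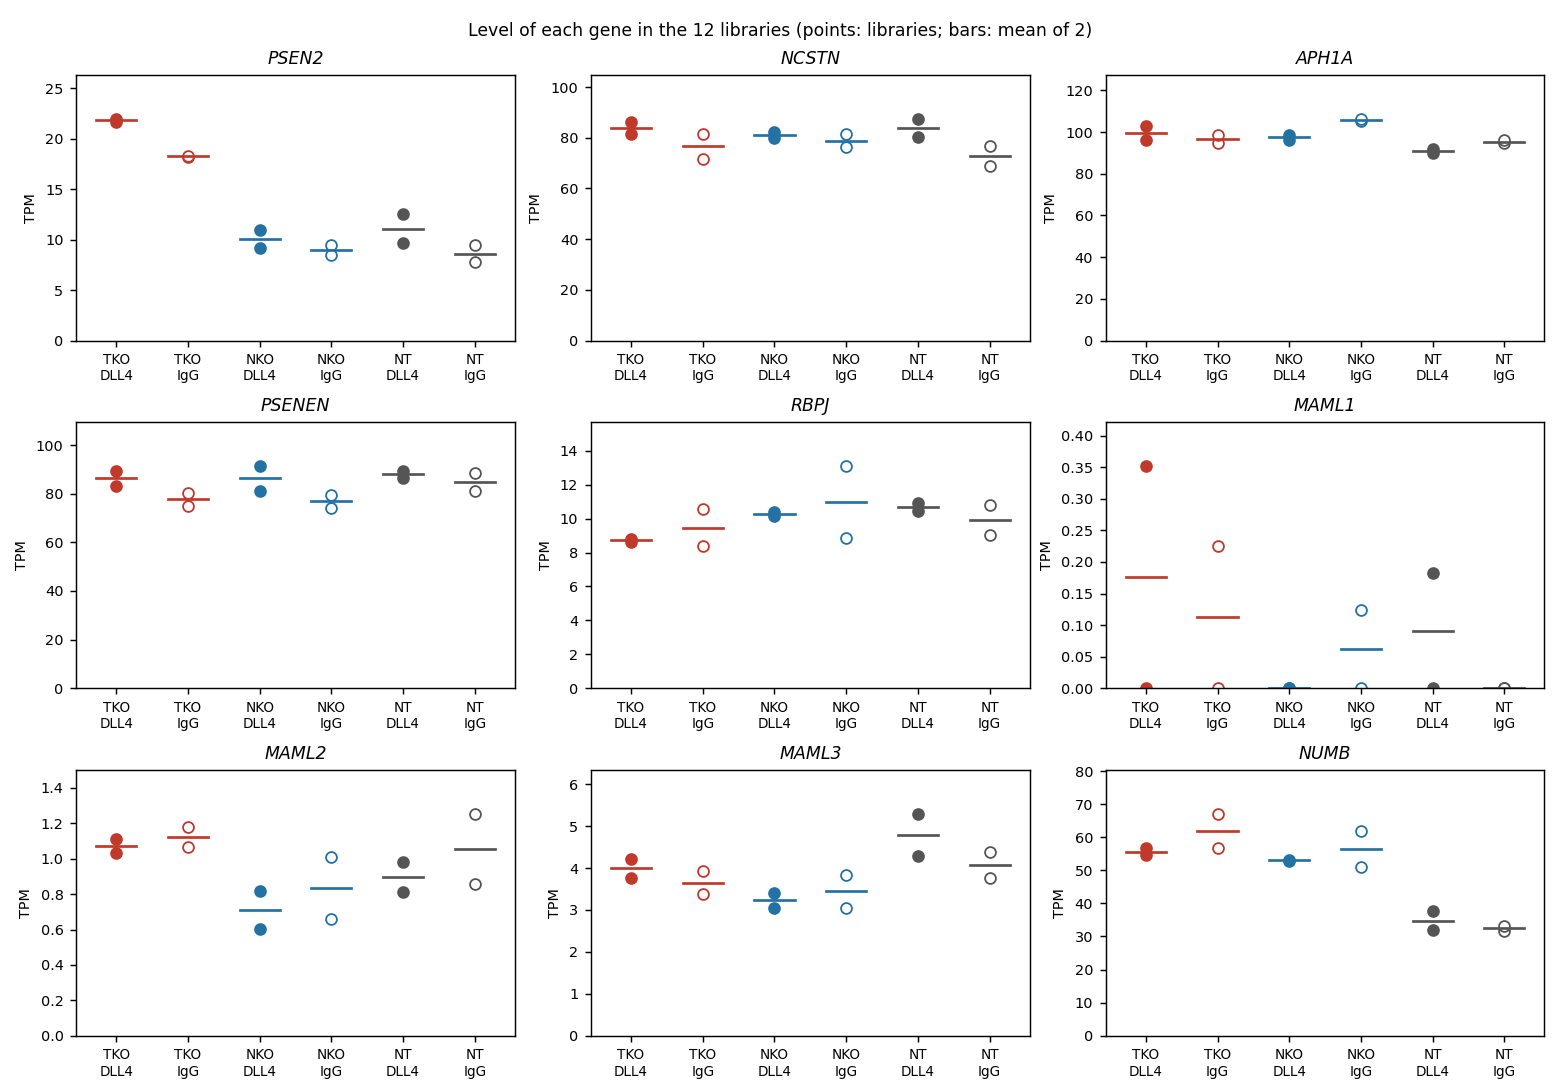
Level of each of the 9 genes in TPM (vertical axes, from 0) in the 6 groups (horizontal axes); points are libraries and bars are means of 2 libraries. PSEN2 is between 18.2 and 21.9 TPM in the 4 TKO libraries and at most 12.5 TPM elsewhere, NUMB is at least 50.9 TPM in the TKO and NKO libraries and at most 37.5 TPM in the NT libraries, and the other genes overlap between most groups.

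PSEN2 and NUMB varied across the libraries far more than the structural subunits. The SD of log2(TPM + 1) over the 12 libraries was 0.51 for PSEN2 and 0.38 for NUMB, above that of 86.9% and 77% of all tested genes. It was 0.10 for NCSTN, 0.10 for PSENEN and 0.07 for APH1A, with 3.94%, 3.72% and 0.842% of tested genes below them. RBPJ (0.17), MAML3 (0.18) and MAML2 (0.15) lay between. The SD of MAML2 is not comparable with the others, since at a mean of 0.948 TPM the added 1 shrinks log2 differences. In TPM its highest library was 2.08 times its lowest, beside 2.11 times for NUMB and 1.27 times for NCSTN. The steady subunits stood high by level, as APH1A, PSENEN and NCSTN had higher means than 88.3%, 86.1% and 85.4% of tested genes.

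Among the gamma-secretase subunits, PSEN2 was higher in TKO cells. PSEN2 (chr1:226870184-226896105, plus strand, GENCODE 29 on GRCh38) encodes presenilin 2, a catalytic subunit that is found mostly in late endosomes and lysosomes. In TKO cells it had 21.9 and 21.6 TPM on DLL4 and 18.2 and 18.3 TPM on IgG. The NKO libraries had 9.15 and 10.9 TPM on DLL4 and 9.47 and 8.49 TPM on IgG, and the NT libraries had 12.5 and 9.63 TPM on DLL4 and 9.42 and 7.80 TPM on IgG. Every TKO library stood above every other library, whereas the NKO and NT ranges overlapped. Over both coatings PSEN2 rose in TKO cells against NT cells by 0.97 ± 0.10 (SE) on the log2(TPM + 1) scale, a 1.96-fold difference of TPM + 1 with a 95% interval of 0.74 to 1.19 in log2 (limma adjusted p = 2.21e-05). On IgG alone the difference was 1.01 ± 0.14 (limma adjusted p = 0.000424), and on DLL4 alone it was 0.93 ± 0.14 (limma adjusted p = 0.000609). TKO cells also exceeded NKO cells, by 1.00 ± 0.10 (limma adjusted p = 2.63e-05), while the NKO against NT difference was -0.03 ± 0.10 with an interval of -0.26 to 0.19. The TKO against NT and NKO against NT comparisons use the same NT libraries, which the TKO against NKO comparison does not.

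With NUMB, PSEN2 made up the 2 of 8 tested members that rose in TKO cells against NT cells over both coatings, none falling, where 21.2% of all tested genes rose and 16.0% fell (57% of the calls higher, and 47.8% after quantile normalisation). The counts were the same on each coating, against 15.2% higher and 12.4% lower of all tested genes on IgG and 16.1% higher and 10.5% lower on DLL4. The median change of the 8 was 0.06 and that of all tested genes 0.03. Against NKO cells, PSEN2 was the 1 member of 8 that rose in TKO cells and none fell, where 17.6% of all tested genes rose and 17.6% fell. PSEN2 and NUMB were also the 2 of 8 members whose TKO and NT libraries did not overlap, as was so for 28.5% of all tested genes. Between TKO and NKO libraries there was no overlap for 2 of 8, PSEN2 and MAML2, against 29.4% of all tested genes. With 8 members, shares of this size are near those of the whole table.

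The other subunits moved little. NCSTN (chr1:160343272-160358952, plus strand) lay between 68.7 and 87.5 TPM in all 12 libraries, and its difference from NT over both coatings was 0.04 ± 0.06 in TKO cells and 0.04 ± 0.06 in NKO cells. PSENEN (chr19:35745114-35747519, plus strand) lay between 74.2 and 91.3 TPM, with differences of -0.08 ± 0.06 in TKO and -0.08 ± 0.06 in NKO cells. None of these 4 differences passed the limma test, and their 95% intervals lay between -0.22 and 0.18. APH1A (chr1:150265399-150269580, minus strand) had 98.6 and 96.2 TPM in NKO cells on DLL4 and 105 and 106 TPM on IgG, against 92.0 and 89.9 TPM in NT cells on DLL4 and 94.8 and 96.1 TPM on IgG. All 4 NKO libraries were thus above all 4 NT libraries, by 0.12 ± 0.05, which missed the threshold (limma adjusted p = 0.0809). It passed when all symbols with any value were tested (limma adjusted p = 0.0481). The TKO libraries of APH1A, at 94.6 to 103 TPM, overlapped those of NT. Parts of these genes are shared with a gene on the other strand, namely COPA at NCSTN (62.4 to 85.1 TPM), C1orf54 at APH1A (0.738 to 6.35 TPM) and U2AF1L4 at PSENEN (4.82 to 7.45 TPM), and whether strand was used in counting is not given in the sources used here.

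Ratios of transcripts between subunits set PSEN2 apart from the rest in TKO cells. The ratio of NCSTN to PSEN2 TPM within a library was 3.77 to 4.45 in TKO cells, against 7.34 to 9.004 in NKO cells and 6.99 to 8.81 in NT cells. The TKO libraries were apart from all the others. The ratio of NCSTN to APH1A was 0.757 to 0.900 in TKO cells, 0.718 to 0.836 in NKO cells and 0.715 to 0.951 in NT cells, with all 3 lines overlapping. The ratio of PSENEN to APH1A was 0.762 to 0.870 in TKO cells, 0.698 to 0.926 in NKO cells and 0.845 to 0.996 in NT cells. These ratios of transcripts carry no information on the assembled enzyme.

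**Figure D2:**
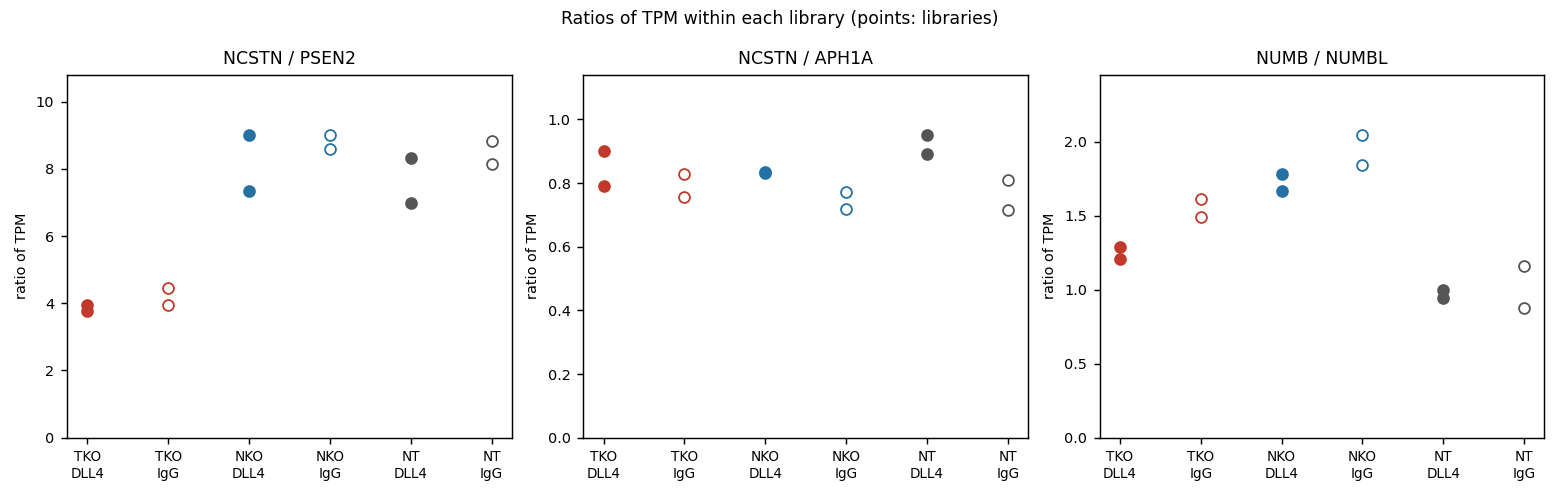
Ratio of 2 genes' TPM within each library (vertical axes, from 0) in the 6 groups; points are libraries. NCSTN to PSEN2 is at most 4.45 in the TKO libraries and at least 6.99 in the others, NCSTN to APH1A spans 0.715 to 0.951 with no line apart, and NUMB to NUMBL is lowest in the NT libraries, at 0.878 to 1.16.

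On the nuclear side, none of the 3 tested genes rose or fell between lines. RBPJ (chr4:26163455-26435131, plus strand) had 8.63 and 8.81 TPM in TKO cells on DLL4 and 8.38 and 10.6 TPM on IgG. It had 10.2 and 10.4 TPM in NKO cells on DLL4 and 13.1 and 8.85 TPM on IgG, against 11.0 and 10.4 TPM in NT cells on DLL4 and 9.06 and 10.8 TPM on IgG. On DLL4 both TKO libraries were below both NT libraries, by 0.27 ± 0.17 (limma adjusted p = 0.301), and on IgG the libraries overlapped. The share of all tested genes with such a separation of 2 libraries from 2 was not counted. Over both coatings the difference was -0.17 ± 0.12 in TKO cells, with an interval of -0.43 to 0.10 (limma adjusted p = 0.322), and 0.03 ± 0.12 in NKO cells, with an interval of -0.24 to 0.30. After quantile normalisation the TKO against NT difference was -0.25 (limma adjusted p = 0.05, just inside the threshold), and without NKO library IgG 2 RBPJ was lower in TKO than in NKO cells by 0.33 (limma adjusted p = 0.0339), against -0.20 ± 0.12 with it.

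MAML3 (chr4:139716753-140154184, minus strand) had the highest listed level of the Mastermind-like genes. It had 4.23 and 3.76 TPM in TKO cells on DLL4 and 3.39 and 3.92 TPM on IgG. It had 3.39 and 3.06 TPM in NKO cells on DLL4 and 3.83 and 3.06 TPM on IgG, against 5.29 and 4.28 TPM in NT cells on DLL4 and 3.75 and 4.38 TPM on IgG. On DLL4 both libraries of each edited line were below both NT libraries, narrowly so for TKO. The differences there were -0.45 ± 0.16 in NKO cells (limma adjusted p = 0.0742) and -0.21 ± 0.16 in TKO cells (limma adjusted p = 0.401). How many of all tested genes separate in this way, with 2 libraries a group, was not counted. The NKO against NT difference over both coatings was -0.32 ± 0.11, just short of the threshold (limma adjusted p = 0.0588), and the TKO against NT difference was -0.17 ± 0.11 (limma adjusted p = 0.295). The NKO difference passed after median-of-ratios rescaling (-0.38, limma adjusted p = 0.0142), after quantile normalisation (-0.37, limma adjusted p = 0.0111), without a variance trend (limma adjusted p = 0.037) and without NKO library IgG 1 (-0.38, limma adjusted p = 0.0484). MAML3 lies across MGST2 on the other strand, which had 55.3 to 109 TPM, far above MAML3 itself.

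MAML2 (chr11:95976598-96343180, minus strand) stayed between 0.604 and 1.25 TPM. Its 4 TKO libraries, at 1.03 to 1.18 TPM, were all above the 4 NKO libraries, at 0.604 to 1.01 TPM. The difference of 0.25 ± 0.14 did not pass (limma adjusted p = 0.198). It ranged from 0.18 to 0.48 over the alternatives, and at such levels the added 1 shrinks log2 differences. Against NT, at 0.810 to 1.25 TPM, both edited lines overlapped. MAML1 (chr5:179732850-179777286, plus strand) was listed at 0 in 8 libraries and reached 0.351 TPM in a TKO library on DLL4, the highest of the 4 libraries with a value above 0. These were 1 library each of TKO on DLL4, TKO on IgG, NKO on IgG and NT on DLL4, and MAML1 was below the level for testing. How transcripts were summed to symbols is not given in the sources used here, and the level of MAML1 can depend on it. The 40 housekeeping genes examined were at 1 TPM or more in every library.

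RBPJ exceeded the sum of the 3 Mastermind-like genes in every library, with MAML1 taken as listed. The ratio of RBPJ to that sum was 1.54 to 1.99 in TKO cells, 2.38 to 2.85 in NKO cells and 1.75 to 1.98 in NT cells. The 4 NKO libraries were above the other 8. The lowest values of MAML2 and MAML3 among all libraries were in the NKO line, but not in each of its libraries. In NKO library IgG 1, with a ratio of 2.64, MAML2 (1.01 TPM) and MAML3 (3.83 TPM) were inside the NT ranges. RBPJ was there at 13.1 TPM, its highest value among all libraries. As this ratio was not part of the fit over all genes, it is given as a description.

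NUMB was higher in both edited lines. NUMB (chr14:73275107-73458617, minus strand) had 54.6 and 56.6 TPM in TKO cells on DLL4 and 56.8 and 67.0 TPM on IgG. It had 52.8 and 53.3 TPM in NKO cells on DLL4 and 61.9 and 50.9 TPM on IgG, against 37.5 and 32.0 TPM in NT cells on DLL4 and 31.7 and 33.2 TPM on IgG. All 8 libraries of the edited lines were above all 4 NT libraries, and the TKO and NKO ranges overlapped. Over both coatings NUMB rose by 0.79 ± 0.08 in TKO cells against NT cells (1.72-fold, limma adjusted p = 2.26e-05) and by 0.69 ± 0.08 in NKO cells against NT cells (1.61-fold, limma adjusted p = 0.000147). These comparisons share the NT libraries, so they are not independent of each other. TKO and NKO cells differed by 0.10 ± 0.08, with an interval of -0.08 to 0.28 (limma adjusted p = 0.385).

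NUMB rose in NKO cells on IgG by 0.77 ± 0.12 (limma adjusted p = 0.00167). Its rise on DLL4 was 0.60 ± 0.12 (limma adjusted p = 0.0049), and it missed the threshold when NT library DLL4 3 was left out (0.49, limma adjusted p = 0.0503). NUMB was the 1 member of 8 that rose in NKO cells, over both coatings and on each of them, and none fell. Of all tested genes 15.6% rose and 12.1% fell in NKO cells over both coatings, 4.92% and 5.74% on IgG, and 11.4% and 9.31% on DLL4. Higher genes were thus 56.3% of the calls over both coatings and 55.1% on DLL4, and after median-of-ratios rescaling 43.6% and 44.0%. APH1A and NUMB were the 2 of 8 members with no overlap between NKO and NT libraries, against 21.1% of all tested genes. The median change of the 8 members was 0.00 against 0.06 for all tested genes. Sums of the smooth muscle markers, made up mainly of TAGLN and ACTA2, were 40.8 to 85.5 TPM in TKO cells, 67.5 to 112 TPM in NKO cells and 35.4 to 49.0 TPM in NT cells, with MYH11 below 1 TPM in every library. Sums of the leukocyte markers, almost all CD68, were 48.9 to 65.3 TPM in TKO cells, 27.6 to 39.8 TPM in NKO cells and 42.5 to 53.7 TPM in NT cells. Those of the epithelial markers, almost all KRT8, were 37.55 to 48.6 TPM in TKO cells, 59.6 to 142.5 TPM in NKO cells and 48.2 to 61.7 TPM in NT cells. Fibroblast and pericyte markers summed to 1.049 to 2.405 TPM in TKO cells, 1.001 to 1.85 TPM in NKO cells and 1.98 to 2.94 TPM in NT cells. Their part in the differences of NUMB was not tested.

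NUMBL, the paralog of NUMB, was set beside it. NUMBL rose in TKO cells against NT cells by 0.31 ± 0.10 (limma adjusted p = 0.0378). Its call ended in 5 of the 12 fits that each left out 1 library, the largest adjusted p being 0.141 without NT library DLL4 3, and the change was 0.19 without NT library IgG 2 (limma adjusted p = 0.135). It also ended with no filter, after quantile normalisation, without a variance trend and with only the lines compared (limma adjusted p of 0.0502 to 0.103). The ratio of NUMB to NUMBL was 1.21 to 1.62 in TKO cells, 1.67 to 2.05 in NKO cells and 0.878 to 1.16 in NT cells. All 3 lines were apart in this ratio, with NUMB above NUMBL in every library of the edited lines.

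**Figure D3:**
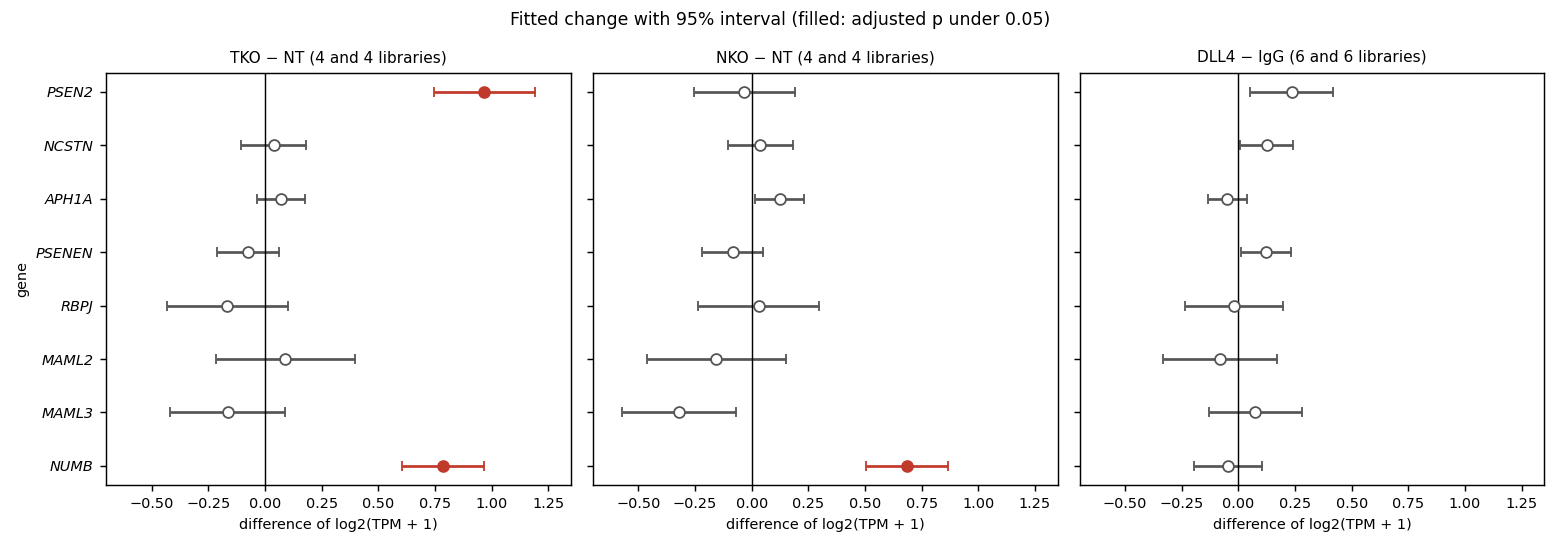
Fitted difference of log2(TPM + 1) with its 95% interval (horizontal axis) for the 8 tested genes, for TKO minus NT, NKO minus NT and DLL4 minus IgG; filled points have an adjusted p under 0.05. PSEN2 (0.97) and NUMB (0.79) are filled for TKO, NUMB (0.69) is filled for NKO, and no gene is filled for DLL4.

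The genes beside NUMB on chromosome 14 differed together with it. The 5 nearest tested genes at higher coordinates, RIOX1, ACOT1, ACOT2, DNAL1 and PNMA1, all rose in TKO cells against NT cells, by 0.99 to 1.45, and all rose in NKO cells against NT cells, by 0.70 to 1.14. The 5 reported at lower coordinates, RBM25, ZFYVE1, DCAF4, DPF3 and SIPA1L1, did not follow them, with DCAF4 (-0.52 ± 0.09) and DPF3 (-0.41 ± 0.10) lower in TKO cells and DCAF4 (0.28 ± 0.09) higher in NKO cells, the last of these calls ending in 8 of 12 fits without 1 library (limma adjusted p up to 0.162, without NT library DLL4 3), with no filter and with only the lines compared. PNMA1 (chr14:73711783-73714372) had 81.9 to 84.6 TPM in TKO cells and 66.3 to 68.8 TPM in NKO cells, against 31.1 to 33.8 TPM in NT cells. It rose by 1.32 ± 0.05 in TKO cells (limma adjusted p = 9.35e-09) and by 1.03 ± 0.05 in NKO cells (limma adjusted p = 1.74e-07). RIOX1 had 11.3 to 12.8 TPM in TKO cells and 12.3 to 14.1 TPM in NKO cells, against 4.50 to 6.31 TPM in NT cells. ACOT1 and ACOT2 are close paralogs, acyl-CoA thioesterases whose reads can be exchanged, so their separate values are uncertain. With a pseudocount of 0.1 ACOT1 was at 1.92 in TKO and 1.43 in NKO cells, against 1.00 and 0.70.

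A wider window of 15 tested genes on each side, chosen after these values were seen, was used to describe the run. The run was bounded by the genes that rose in both edited lines. The counts of rises inside it are therefore set by that choice and are a description only. Its lower end is not placed more closely than the 151 kb between RBM25 and NUMB. From NUMB to ELMSAN1, chr14:73275107-73790285 or 515 kb, 7 of 7 tested genes rose in TKO cells and 7 of 7 rose in NKO cells, with all libraries of each edited line above all NT libraries. Median changes over the 7 were 1.00 in TKO cells and 1.02 in NKO cells. Of the other 24 genes in the window, 1 rose and 4 fell in TKO cells, with a median of -0.02, and 3 rose and 1 fell in NKO cells, with a median of 0.16. With 1 library left out, these 4 NKO calls often ended, while those of the run held. In TKO cells the calls of PTGR2, SMOC1, DPF3 and DCAF4, outside the run, also held, and that of COX16 sometimes ended. Genes of the run had to be called in both lines, so the holding of their calls is in part set by that choice. Of the 24 genes, PTGR2, next after ELMSAN1, was the 1 that rose in TKO cells, by 0.67 ± 0.16 (limma adjusted p = 0.00621). Its change in NKO cells was 0.40 ± 0.16 (limma adjusted p = 0.0856). Over chromosome 14 as a whole, 74 of 434 tested genes, 17.1%, rose in each edited line, with medians of 0.05 in TKO and 0.11 in NKO cells. Between TKO and NKO cells, a comparison without NT libraries, the 7 genes had a median difference of 0.10, and ACOT2 (0.31 ± 0.09) and PNMA1 (0.29 ± 0.05) were higher in TKO cells. Whether the NT line is low in this stretch or the edited lines are high cannot be told apart, since no other unedited line was compared.

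**Figure D4:**
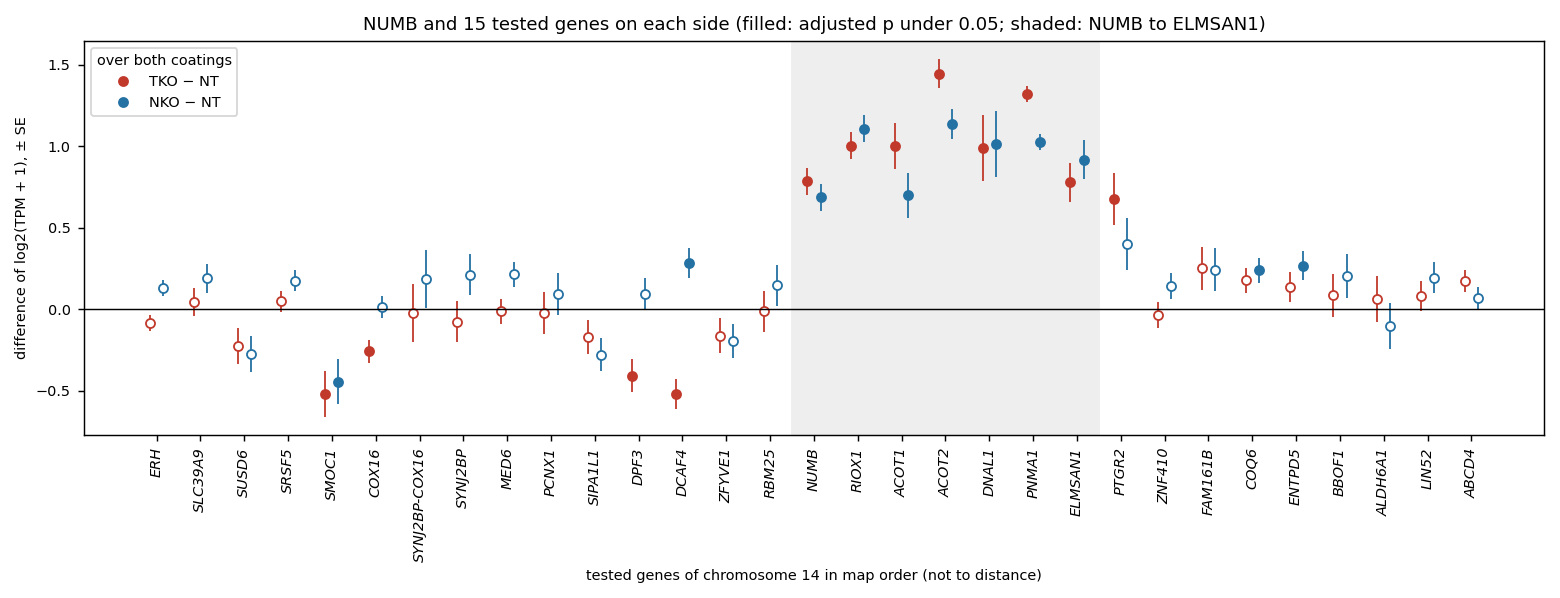
Difference of log2(TPM + 1) from NT (vertical axis, ± SE) over both coatings for NUMB and 15 tested genes on each side, in map order and not to distance; red is TKO minus NT, blue is NKO minus NT, and filled points have an adjusted p under 0.05. The shaded genes from NUMB to ELMSAN1 lie at 0.69 to 1.45, all filled, and PTGR2 is the next to the right.

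The neighbours of PSEN2 gave fewer differences. Of its 10 nearest tested genes, 2 rose and 1 fell in TKO cells, and 2 rose and 0 fell in NKO cells. Over all tested genes 21.2% rose and 16.0% fell in TKO cells, and 15.6% and 12.1% in NKO cells. With 10 genes these counts are near those shares. COQ8A, which begins 1.4 kb beyond the end of PSEN2 and encodes a kinase-like protein of coenzyme Q synthesis, rose in TKO cells against NT cells by 0.54 ± 0.13 (limma adjusted p = 0.00585). JMJD4 rose by 0.23 ± 0.08 and H3F3A fell by 0.16, and the other 7 of the 10 nearest tested genes did not pass, with a median of -0.05 over the 10. COQ8A kept its call in all 12 fits without 1 library, whereas that of H3F3A ended in 6 of them (limma adjusted p up to 0.167, without NT library IgG 2) and that of JMJD4 in 8 (up to 0.145, without TKO library DLL4 2). Quantile normalisation also ended both of these calls (limma adjusted p of 0.109 for H3F3A and 0.102 for JMJD4, at 0.15), as did other alternatives. In NKO cells PARP1 (0.40 ± 0.07) and JMJD4 (0.26 ± 0.08) rose against NT cells, the JMJD4 call ending in 9 of 12 such fits (limma adjusted p up to 0.128, without NT library DLL4 3), after either rescaling and with only the lines compared, and COQ8A was at 0.24 ± 0.13 (limma adjusted p = 0.177).

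Against IgG, DLL4 left all 8 tested members below the threshold while it raised Notch target genes. Over the 3 lines, 0 of 8 members rose or fell, where 10.6% of all tested genes rose and 8.72% fell (54.9% of the calls higher, and 48.5% after quantile normalisation). The unadjusted limma p was under 0.05 for 3 of the 8, PSEN2, NCSTN and PSENEN, all with higher means on DLL4, and no member had libraries on DLL4 and on IgG that did not overlap, against 2.59% of all tested genes. PSEN2 was higher on DLL4 by 0.24 ± 0.08 (limma adjusted p = 0.071), NCSTN by 0.13 ± 0.05 (limma adjusted p = 0.127) and PSENEN by 0.12 ± 0.05 (limma adjusted p = 0.119). PSEN2 passed after median-of-ratios rescaling (0.22, limma adjusted p = 0.0436) and without NT library DLL4 3 (0.29, limma adjusted p = 0.0358). The intervals held the changes of NUMB to between -0.20 and 0.10 and those of RBPJ to between -0.24 and 0.20. In the same contrast all 7 Notch target genes examined rose, among them HES4 by 3.21 ± 0.11, DLL4 by 1.89 ± 0.08, HES1 by 1.54 ± 0.07 and HEY2 by 1.24 ± 0.06. By line, 7 of 7 rose in TKO cells, 6 of 7 in NT cells and 4 of 7 in NKO cells. Of all tested genes 6.51%, 16.0% and 0.782% were called there. EFNB2 averaged 0.073 TPM on DLL4 and 0.046 TPM on IgG in NKO cells, against 11.1 and 0.309 TPM in NT cells.

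In TKO cells, 0 of 8 members were called between DLL4 and IgG, where 6.51% of all tested genes were (63.0% of these calls higher, and 51.9% when KPNA2P2 was left out and libraries rescaled), and 0 had an unadjusted limma p under 0.05. In NKO cells, 0 of 8 were called where 0.782% of all tested genes were, again with 0 at an unadjusted p under 0.05. In NT cells, 0 of 8 were called where 16.0% of all tested genes were, and PSEN2 (0.32 ± 0.14, limma adjusted p = 0.159) and NCSTN (0.20 ± 0.09, limma adjusted p = 0.168) had an unadjusted p under 0.05. For PSEN2 the mean on DLL4 was above that on IgG in each line, by 0.24 ± 0.14 in TKO cells and 0.14 ± 0.14 in NKO cells. No member's response to DLL4 differed between an edited line and NT cells: 0 of 8 passed for TKO, where 0.526% of all tested genes did, and 0 of 8 for NKO, where 0.887% did, with 0 at an unadjusted limma p under 0.05 in either. These differences were estimated with wide intervals, for example -0.53 to 0.37 for PSEN2 in TKO minus NT and -0.61 to 0.12 for NUMB.

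Around gamma-secretase, 5 other genes of subunits and trafficking were listed and all were tested. APH1B, the alternative scaffold subunit, was the 1 that rose on DLL4 over the 3 lines, by 0.39 ± 0.08 (limma adjusted p = 0.0066), and none fell. It averaged 12.9 ± 1.41 TPM (SD, n = 2) on DLL4 and 9.13 ± 1.70 TPM on IgG in TKO cells, 11.0 ± 0.366 and 9.04 ± 0.313 TPM in NKO cells, and 13.6 ± 1.30 and 9.59 ± 0.693 TPM in NT cells. APH1A, the other scaffold gene, was at -0.05 ± 0.04 in the same contrast. In TKO cells against NT cells GSAP, the gamma-secretase activating protein gene, rose by 0.57 ± 0.14 (limma adjusted p = 0.00858) and RER1, a retrieval factor of the early secretory pathway, fell by 0.18 (limma adjusted p = 0.0211). The call of RER1 ended in 5 of 12 fits without 1 library, with an adjusted p up to 0.0836 without NT library DLL4 2, and without a variance trend (limma adjusted p = 0.0589). GSAP was at 0.95 with a pseudocount of 0.1. None of the 5 rose or fell in NKO cells against NT cells. Over all tested genes 10.6% rose and 8.72% fell on DLL4, 21.2% and 16.0% in TKO cells, and 15.6% and 12.1% in NKO cells. With 5 genes these counts are near those shares.

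Upstream of gamma-secretase, ADAM10, ADAM17 and FURIN were tested. FURIN, the convertase that processes the Notch precursor, fell by 0.45 in TKO cells (limma adjusted p = 0.000196) and by 0.62 in NKO cells (limma adjusted p = 3.95e-05) against NT cells. On DLL4 it averaged 129 ± 8.13 TPM (SD, n = 2) in TKO cells and 109 ± 2.54 TPM in NKO cells against 195 ± 6.59 TPM in NT cells. In NT cells FURIN rose on DLL4 against IgG by 0.40 (limma adjusted p = 0.0118). It missed the threshold with NT library IgG 2 left out (limma adjusted p = 0.0866) or with NT library DLL4 2 left out, and over the 3 lines none of these proteases passed. ADAM10 and ADAM17 passed in none of these contrasts.

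Among 10 coactivators and turnover factors, 2 rose and 1 fell in TKO cells against NT cells, 2 rose and none fell in NKO cells, and 1 rose on DLL4 over the 3 lines. Over all tested genes 21.2% rose and 16.0% fell in TKO cells, 15.6% and 12.1% in NKO cells and 10.6% and 8.72% on DLL4, and with 10 genes these counts are near those shares. MED12, a subunit of the Mediator kinase module, rose by 0.44 ± 0.09 in TKO cells (limma adjusted p = 0.00355) and on DLL4 by 0.24 ± 0.08 (limma adjusted p = 0.0484). The acetyltransferase gene KAT2B rose by 0.45 ± 0.16 in TKO cells and the Mediator kinase gene CDK8 fell by 0.25 there. In NKO cells EP300 rose by 0.44 ± 0.13 (limma adjusted p = 0.0294) and CCNC, the cyclin partner of CDK8, by 0.29 ± 0.08 (limma adjusted p = 0.0219). MED12 kept its call in TKO cells in all 12 fits without 1 library. The others did not: the call of MED12 on DLL4 ended in 10 of them (limma adjusted p up to 0.138, without TKO library DLL4 2), those of KAT2B and CDK8 in 9 each (up to 0.17 without TKO library IgG 3 and 0.117 without TKO library IgG 2), that of EP300 in 6 (up to 0.116, without NT library DLL4 3) and that of CCNC in 4 (up to 0.0789, without NKO library DLL4 1). Without TKO library IgG 3, KAT2B was at 0.28. With no filter the calls of MED12 on DLL4, KAT2B, EP300 and CCNC ended (limma adjusted p of 0.0878, 0.118, 0.0854 and 0.0503). That of MED12 on DLL4 also ended under each of the 3 scalings, that of KAT2B with only the lines compared and that of CDK8 at a mean of 5 TPM.

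Of 25 corepressors and other partners of RBPJ, 5 rose and 4 fell in TKO cells against NT cells, 3 rose and 1 fell in NKO cells, and 3 rose and 2 fell on DLL4 over the 3 lines. The shares over all tested genes, 21.2% and 16.0% in TKO cells, 15.6% and 12.1% in NKO cells and 10.6% and 8.72% on DLL4, were close to these counts. TLE4, a Groucho-type corepressor, rose by 1.15 ± 0.17 in TKO cells (limma adjusted p = 0.00023) and by 1.11 ± 0.17 in NKO cells (limma adjusted p = 0.000641). Its level in NT cells was low, with means of 1.01 TPM on IgG and 1.55 TPM on DLL4. Over the alternatives its change reached 1.59 in TKO and 1.56 in NKO cells. TBL1X, a component of the NCOR corepressor complex, fell by 0.75 in TKO cells (limma adjusted p = 0.00021), and the demethylase gene KDM1A fell by 0.34 there. BEND6, which binds RBPJ, rose in TKO cells by 0.68 ± 0.12. In NKO cells HDAC2, a deacetylase gene, rose by 0.23 ± 0.05, TLE1 rose by 0.35 ± 0.08 and SAP30 fell by 0.23. On DLL4 FHL1 rose by 0.25 ± 0.05, TLE2 by 0.42 ± 0.09 and TLE4 by 0.48 ± 0.13, and the corepressor gene NCOR1 fell by 0.37. Of these calls, SAP30 in NKO cells ended in 7 of 12 fits without 1 library (limma adjusted p up to 0.105, without NKO library DLL4 1), TLE4 on DLL4 in 7 (up to 0.0909, without TKO library DLL4 3) and NCOR1 on DLL4 in 3 (up to 0.06, without NT library IgG 2). All 3 also ended with no filter (limma adjusted p of 0.0641, 0.107 and 0.0799), and SAP30 without a variance trend. The median change of the 25 was -0.01 in TKO cells, 0.12 in NKO cells and 0.02 on DLL4, beside 0.03, 0.06 and 0.01 for all tested genes.

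Of 20 partners of NUMB, endocytic adaptors and ubiquitin ligases, 18 were tested. In TKO cells 4 rose and 4 fell against NT cells, near the 21.2% and 16.0% of all tested genes. Among them the adaptor subunit gene AP2A2 rose by 0.60 ± 0.09 (limma adjusted p = 0.000448) and the ligase gene CBL by 0.66 ± 0.13 (limma adjusted p = 0.00204), while the ligase gene MDM2 fell by 0.45. DTX3, a Deltex ligase gene, fell by 1.05 in TKO cells (limma adjusted p = 8.94e-05) and rose by 0.81 ± 0.13 in NKO cells (limma adjusted p = 0.00112), and TKO and NKO cells differed by -1.86 ± 0.13 (limma adjusted p = 1.81e-06). With a pseudocount of 0.1 DTX3 was at -2.04 for TKO against NT and at -3.12 for TKO against NKO. In NKO cells 1 rose and 2 fell, where 15.6% and 12.1% of all tested genes did: NEDD4L, a ubiquitin ligase gene, fell by 1.08 (limma adjusted p = 0.00253) and AP2S1 fell by 0.17. On DLL4 over the 3 lines LNX1, whose product ubiquitinates NUMB, fell by 0.64 (limma adjusted p = 0.00144) and MDM2 rose by 0.22 ± 0.07. The calls of AP2S1 in NKO cells and MDM2 on DLL4 each ended in 9 of 12 fits without 1 library, with an adjusted p up to 0.149 without NKO library IgG 1 and 0.113 without TKO library DLL4 3. Both also ended with no filter and without a variance trend, and AP2S1 after quantile normalisation and with only the lines compared (limma adjusted p of 0.0579 to 0.107 over these fits).

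The Notch target genes, which the complexes described here serve, gave the readout of the lines. Over both coatings HES1 fell by 1.33 and HES4 by 1.26 in TKO cells against NT cells, while HEY2 (0.73 ± 0.08) and DLL4 (0.91 ± 0.09) rose, 3 of 7 rising and 2 falling. In NKO cells 6 of 7 fell against NT cells and none rose. Among them HES4 fell by 2.87 and EFNB2 by 1.91 (-3.79 with a pseudocount of 0.1). Over all tested genes 21.2% rose and 16.0% fell in TKO cells, and 15.6% and 12.1% in NKO cells. By coating, 2 of 7 fell in NKO cells on IgG and 6 of 7 on DLL4, where 5.74% and 9.31% of all tested genes fell. The response to DLL4 was lower in NKO than in NT cells for 4 of 7, where 0.887% of all tested genes differed. HEY2 averaged 31.0 TPM in TKO cells against 11.3 TPM in NT cells on IgG, and 59.9 against 56.4 TPM on DLL4. RBPJ, MAML2 and MAML3 did not pass in TKO or NKO cells against NT cells over both coatings.

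The genes whose pattern over the 12 libraries was most like that of a member were taken from 9552 genes with a mean of at least 5 TPM, by Pearson's r of log2(TPM + 1), as a description. The libraries fall into 3 lines, so any gene that differs between the same lines gives a high r. For NUMB they were RDX (0.992) and USP28 (0.986), both on chromosome 11, followed by ZNF664 on chromosome 12, which lie outside the chromosome 14 run. For PSEN2 they were CLDN7 (0.987), a claudin gene, GANAB (0.98), a glucosidase subunit gene, and CTSK (0.979), a lysosomal protease gene. NCSTN was closest to MED14 (0.95), SCARB2 (0.949), which encodes a lysosomal membrane protein, and UBR2 (0.919). RBPJ was closest to ACVR1B (0.923) and MAML3 to TMEM63A (0.953). MAML2 was closest to SCAMP2 (0.923) and CD68 (0.912), a gene at 27.3 to 64.3 TPM. APH1A and PSENEN, the steadiest members, reached 0.893 with ARMC7 and 0.898 with AL031281.3. Between members the highest r were 0.619 for APH1A with NUMB, 0.558 for MAML2 with MAML3 and 0.536 for PSEN2 with NUMB. These come from few pairs, while the genes above were picked as the highest of 9552 candidates over only 12 libraries. The members' values are therefore not comparable with those of the genes above.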

How the data were processed

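Polyadenylated RNA of 12 TeloHAEC libraries, 6 groups of 2, was analysed. The authors deposited TPM (tpm), 1 value per symbol and library. The submitters' processing notes name kallisto, edgeR and hg38. Versions, the annotation and the use of strand: not given in the sources used here. TPM summed to 974989 to 977130 per library, and depth is unknown. Columns were numbered 2 and 3 in the NT and TKO groups and 1 and 2 in the NKO groups, whereas the labels number libraries differently, so each was used as a library of its group and is named by its column number. All per-sample columns were used.

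Values were taken as log2(TPM + 1), for genes at 1 TPM or more in at least 2 libraries (13299), and fitted in limma 3.58.1 (R 4.3.3). The model gave each group its mean and used all 12 libraries, with a variance trend (6 residual degrees of freedom, 10.8 after moderation). Tests were two-sided, and p-values were adjusted over all tested genes by Benjamini-Hochberg at 0.05. The fit was tested on simulated data. There were 13 comparisons, among them TKO and NKO against NT, TKO against NKO, DLL4 against IgG and the differences of DLL4 responses. Errors of log2 changes are standard errors.

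The members and lists were chosen with earlier results of these data known. The genes named are the members, the 3 genes most like each by Pearson's r (1 to 3 are printed), the 5 nearest tested genes on each side of a member called between lines, and the called genes of each list (the 4 of smallest p where more were called). 1 gene of the subunit list and 1 of the NUMB partner list are not reported here, nor counted in the lists or among neighbours. Positions are from GENCODE 29 (35389 symbols matched) and promoters from RefSeq. Alternatives were another pseudocount (0.1), other filters (none, or a mean of 5 TPM), 3 scalings, a replicate block, no variance trend, only the lines compared, and each library left out. Python 3.11.15 and matplotlib 3.10.9 drew the figures.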

Additional observations from a re-analysis of the deposited data

How the results depend on the processing

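The number of members called was recomputed under 21 alternatives for 13 comparisons. Of 272 such counts 260 stayed within 1.5 times and 12 did not. For DLL4 against IgG over the 3 lines it was 1 (PSEN2) after median-of-ratios rescaling, against 0, and 0 to 1 with libraries left out in turn. For NKO against NT on DLL4 it was 2 (MAML3 and NUMB) after median-of-ratios rescaling, after quantile normalisation and without a variance trend, against 1, and 0 to 1 with libraries left out. For NKO against NT over both coatings it was 2 with no filter (APH1A and NUMB), and 2 (MAML3 and NUMB) after either rescaling and without a variance trend, against 1, and 1 to 2 with libraries left out. For TKO against NKO it was 1 to 2 with libraries left out. The cause was not tested. PSEN2 in TKO against NT over both coatings ranged over 0.88 to 1.05, and NUMB over 0.73 to 0.84 in TKO and 0.62 to 0.75 in NKO, all passing. None of these changes turned direction. Of 35 changes of members followed, called or not, 5 turned direction, none of them called. Against NT, NCSTN was -0.0011 in TKO and -0.031 in NKO cells after median-of-ratios rescaling, -0.016 in TKO cells after quantile normalisation and -0.019 in NKO cells with the column number as a replicate block, and -0.0087 to 0.084 in TKO and -0.0020 to 0.077 in NKO cells with libraries left out. RBPJ in NKO cells was -0.033, -0.041 and -0.028 in the same order of alternatives, and -0.098 to 0.16 with libraries left out. With libraries left out PSEN2 in NKO cells was -0.12 to 0.054 and RBPJ on DLL4 -0.11 to 0.066. Of 120 calls of genes outside the members, 84 held with each library left out, while 25 ended with no filter, 16 without a variance trend, 13 with only the lines compared and 30 with the column number as a replicate block.

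With the column number as a replicate block no count of members called moved, NUMB in NKO cells being at 0.64 (limma adjusted p = 0.00532), while the number of all genes called for NKO against NT over both coatings was 2112 against 3690. Differences between the libraries of a group correlated at -0.04 to 0.09 between the NT and TKO groups and at 0.28 between the NKO groups, and the numbers were not taken to pair the samples. Over all genes, counts also differed by more than 1.5 times for DLL4 in NKO cells (53 with only that line, against 104), for the response in TKO minus NT (108 at a mean of 5 TPM and 141 after quantile normalisation, against 70) and for that in NKO minus NT (78 with no filter, against 118). With a library left out they were as low as 960 against 2130 for DLL4 in NT cells, 307 against 866 in TKO cells, 37 against 104 in NKO cells, 664 against 1418 for NKO against NT on IgG, 1434 against 2758 on DLL4, 2430 against 3666 for TKO against NT on IgG, 2298 against 3543 on DLL4, and 13 against 70 and 30 against 118 for the responses in TKO and NKO minus NT. A lone library is there assumed to vary like the others. The groups of 2 and the unknown depth limit what could be detected, above all for MAML1 and MAML2.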
